A study of Mus musculus with 15 samples.

Results

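SB202190 is a small molecule that blocks the kinase activity of p38 mitogen-activated protein kinases, and the comparison described here set 3 arrays of mouse chondrocytes treated with it against 3 arrays of cells given its vehicle, DMSO. These 6 arrays are part of a set of 15 on which 5 treatments were profiled. The cells came from hind limb cartilage of CD1 mouse embryos at day 15.5 and were plated as a primary monolayer. CD1 is an outbred stock, and the labels name no engineered allele in any group. The other treatments were UO126, an inhibitor of MEK, the kinase that activates ERK; LY294002, an inhibitor of PI3K; and the histone deacetylase inhibitor Trichostatin A (TSA). The sample labels write SB90, taken here to be the SB202190 of the series text. The treatment time is recorded as 24 h in the sample labels and 2 h in the series text. The study's methods give 24 h for the DMSO and LY294002 cultures and do not describe SB202190. The dose of SB202190 is not given in the sources used here. The series text also groups SB202190 with UO126 as an inhibitor of the MEK/ERK pathway. Each treatment was run in 3 biological replicates. The p-values below set a difference against the spread between arrays of the same treatment, pooled over all 5 treatments. Unless the replicate block is named, they do not use the pairing of arrays by replicate number. The deposited values are log2 signals of Affymetrix probe sets, each a set of short probes that reads 1 transcript or a few related ones.

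The p38 kinases are switched on by the upstream kinases MKK3 and MKK6 in response to stress and cytokines. Active p38 phosphorylates further kinases, among them MK2 and the MSK and MNK kinases, and transcription factors such as ATF2, MEF2C and CHOP. In the growth plate, chondrocytes divide, lay down a matrix of type II collagen and aggrecan, and then enlarge as hypertrophic cells that switch to type X collagen. p38 signaling is known as one of the inputs to that last step.

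Dim probe sets were not tested. Those with a mean above 5.64 on the log2 scale, or 50 as a signal, in SB202190 or in DMSO numbered 34539 of 45037 and covered 15907 named genes. At a Benjamini-Hochberg adjusted p under 0.05 from limma, 425 probe sets of 333 named genes were higher in SB202190 (1.23% of those tested) and 244 probe sets of 191 named genes were lower (0.706%). Of the 425 and 244, 33 and 15 had no annotation to a single gene. For all of the 425 and 244, every SB202190 array lay beyond every DMSO array. Over all probe sets tested, the SB202190 arrays all lay above the DMSO arrays for 9.17% and all below for 7.89%. Separate groups in a called gene below therefore add no support to its call. Most differences were small, and 46.5% of the probe sets tested had a difference above 0. That share counts every probe set tested, with or without a gene name. A list member below is read by its gene's brightest probe set, so the share is not a matched comparison for a list. Counts of list members at an unadjusted p under 0.05, given below, have no share over all probe sets beside them. The median size of a log2 difference over all probe sets was 0.09, its median standard error was 0.10, and the 99th percentile of fold was 1.48. At least 1.4-fold differences were seen for 322 probe sets higher in SB202190, of which 218 passed the test, and for 287 lower, of which 176 passed. Differences of 2-fold or more were seen for 11 probe sets higher in SB202190, all of which passed, and for 32 lower, of which 26 passed. The replicate numbers pair the arrays, and with the replicate number as a block 1237 probe sets were higher (3.58%) and 668 lower (1.93%), including all 425 and 244 called without it. The counts also moved with single arrays. Without DMSO replicate 2 they were 155 higher and 156 lower, without DMSO replicate 1 they were 650 and 192, and without SB202190 replicate 1 they were 161 and 102. Leaving out SB202190 replicate 2 or replicate 3 gave 157 and 201 higher, and leaving out DMSO replicate 3 gave 170.

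**Figure D1:**
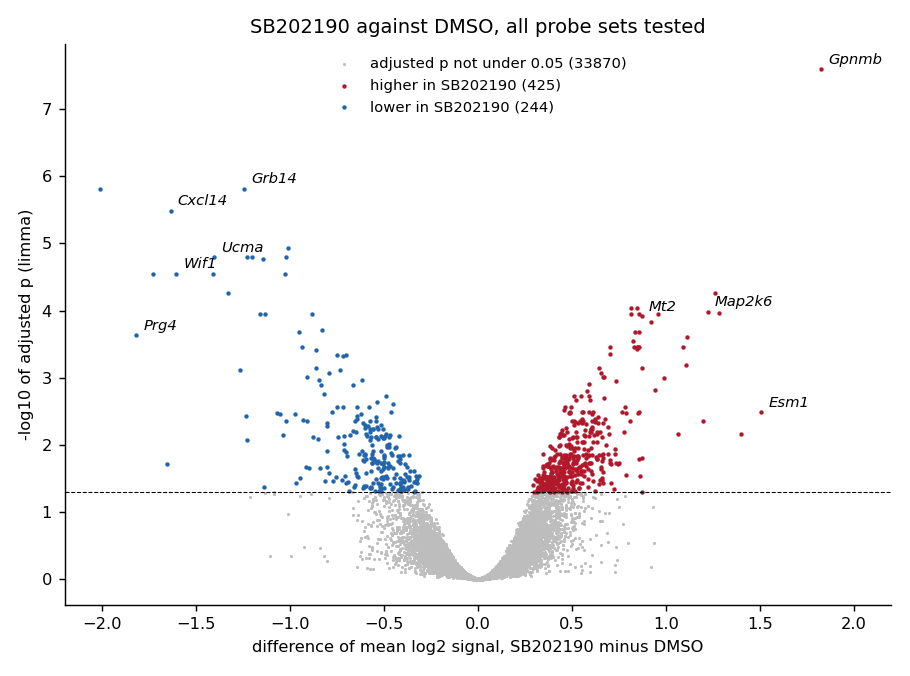
Each point is a probe set tested, with the difference of mean log2 signal between SB202190 and DMSO on the x axis and the −log10 of the adjusted p from limma on the y axis, and the dashed line marks an adjusted p of 0.05. Red points are the 425 probe sets higher in SB202190 and blue points the 244 lower, with Gpnmb at the top right and Cxcl14, Grb14, Ucma and Wif1 among the highest on the left.

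The cultures carried the transcripts that define chondrocytes. The type II collagen gene Col2a1 gave log2 signals of 14.33, 14.39 and 14.36 in SB202190 and 14.36, 14.29 and 14.30 in DMSO. On each of these arrays that was the highest value of all probe sets, so a difference in Col2a1 cannot be judged from signals at the top of the scale. Sox9, the transcription factor of the cartilage lineage, differed by -0.25 (standard error 0.15, adjusted p = 0.563). Markers of other cell types were also detected. The summed signal of the 29 skeletal muscle markers tested ranged on the log2 scale from 12.95 to 13.60 in SB202190 and from 12.52 to 13.49 in DMSO, and that of 21 macrophage and leukocyte markers from 12.06 to 12.18 and from 12.12 to 12.42. Of the muscle markers none passed the test in either direction with limma, and 2 were higher and 2 lower at an unadjusted p under 0.05. With the replicate block 4 of them were higher (3.58% over all probe sets). In RNA from a whole culture, fewer cells of a type and less RNA per cell cannot be told apart.

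Among the genes of the p38 pathway itself, the kinase that activates p38 rose most. Of 33 pathway genes tested, 3 were higher, none was lower and 30 did not pass, against 1.23% and 0.706% of all probe sets. With limma's unadjusted p under 0.05 the counts were 8 and 1. With the replicate block they were 7 and 0, against 3.58% and 1.93% of all probe sets. The median difference of the list was 0.07 on the log2 scale, beside -0.01 over all probe sets tested.

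Map2k6, which encodes MKK6, gave log2 signals of 9.42, 9.34 and 9.28 in SB202190 and 8.35, 8.03 and 8.00 in DMSO. All SB202190 arrays lay above all DMSO arrays, by far more than either group's own spread. The mean rose by 1.22 (standard error 0.13), a 2.33-fold increase (adjusted p = 0.000105). Map2k3, which encodes the related MKK3, differed by 0.12 (standard error 0.10, adjusted p = 0.719), and its arrays overlapped between the groups. Gadd45a, a stress-induced protein that binds upstream kinases of p38 and JNK, gave 9.19, 9.06 and 9.09 in SB202190 against 8.42, 8.05 and 8.25 in DMSO. It rose 1.83-fold (adjusted p = 0.000724), whereas its relatives Gadd45b and Gadd45g differed by -0.13 and -0.00252 and did not pass. Mknk2, the gene of the p38 and ERK substrate kinase MNK2, gave 11.33, 11.18 and 11.25 against 10.76, 10.70 and 10.43 and rose 1.54-fold (standard error 0.10 on the log2 scale, adjusted p = 0.00444). None of these 3 calls was lost when any one array was left out.

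None of the 4 p38 genes passed the test. SB202190 is known to act on the alpha and beta forms of the kinase. Mapk14, the gene of p38 alpha, gave 10.79, 10.80 and 10.85 in SB202190 and 11.05, 10.61 and 10.58 in DMSO, with overlapping arrays, a difference of 0.07 and a standard error of 0.13 (adjusted p = 0.899). Mapk11, the gene of p38 beta, differed by -0.06 (standard error 0.09), Mapk12, the gene of p38 gamma, by -0.07 (standard error 0.15) and Mapk13, the gene of p38 delta, by -0.02 (standard error 0.08). The downstream kinase genes Mapkapk2, Mapkapk3 and Mapkapk5, which encode MK2, MK3 and MK5, lay between -0.03 and 0.08. Of the transcription factors in the list, Atf2 differed by 0.02, Mef2a by 0.06, Creb1 by 0.05, Mef2c by -0.27 (adjusted p = 0.472) and Ddit3, the gene of CHOP, by 0.40 (adjusted p = 0.461). Dusp1, described below, was far from the threshold (adjusted p = 0.326) but passed it with the replicate block. Another 3 members came closer to the threshold from above and also passed it with the block. They were Rps6ka5, the gene of MSK1 (0.42, adjusted p = 0.0703, or 0.00489 with the block), Map3k5, the gene of the stress kinase ASK1 (0.35, adjusted p = 0.0967, or 0.029), and Dusp16, a phosphatase of JNK and p38 (0.37, adjusted p = 0.111, or 0.0119). Without DMSO replicate 1, Map3k5 also passed (adjusted p = 0.0078).

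**Figure D2:**
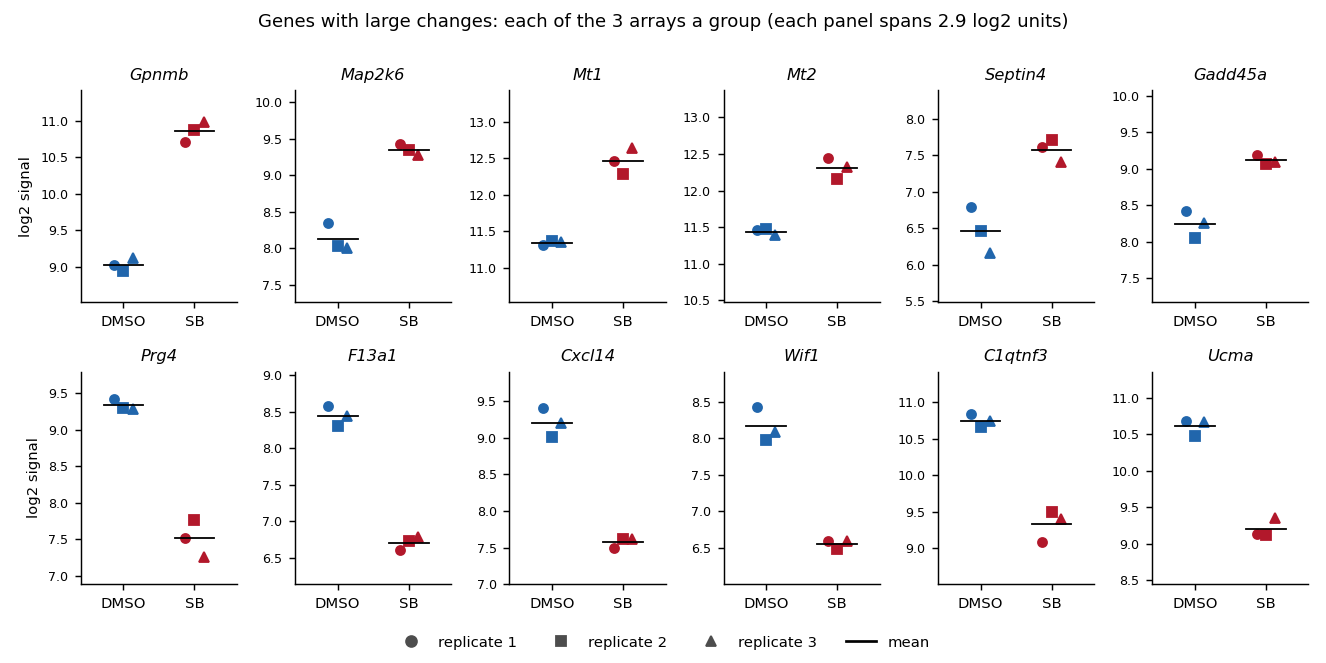
Log2 signal of single arrays for DMSO (blue) and SB202190 (SB, red), with a marker for each replicate and a line at the mean of the 3 arrays. Each panel spans the same range of log2 units, the top row holds genes that were higher in SB202190, from Gpnmb to Gadd45a, and the bottom row genes that were lower, from Prg4 to Ucma. The genes were picked among those whose groups do not overlap.

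The largest increase belonged to Gpnmb, a glycoprotein of lysosomal and melanosomal membranes that is also known as osteoactivin. Its log2 signals were 10.71, 10.88 and 10.98 in SB202190 and 9.02, 8.95 and 9.12 in DMSO. Every SB202190 array lay far above every DMSO array, and neither group spread widely. The mean rose by 1.82 (standard error 0.09), a 3.54-fold increase with an adjusted p of 2.59e-08, and its other probe set passed in the same direction.

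Genes of the lysosome and of autophagy, the route by which cell contents reach it, held 9 increases, Gpnmb among them. Of 36 members tested, 9 were higher (1.23% over all probe sets), none was lower and 27 did not pass. Positive differences were found for 32 of the 36 (46.5% over all probe sets), with a list median of 0.24. At limma's unadjusted p under 0.05 the counts were 21 higher and 1 lower. With the replicate block 14 were higher (3.58% over all probe sets) and none was lower. Without SB202190 replicate 3 the count of higher members was 3, and without DMSO replicate 2 or replicate 3 it was 4. With the 6 arrays of SB202190 and DMSO fitted alone, it was 5.

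Besides Gpnmb, the largest changes in this list belonged to Rragd, Sqstm1 and Glb1. Sqstm1 encodes p62, the adaptor that carries ubiquitin-tagged cargo into autophagosomes. It gave 11.84, 11.85 and 12.04 in SB202190 and 11.33, 11.30 and 11.39 in DMSO. The groups did not overlap, and the 1.48-fold increase had an adjusted p of 0.00598. Glb1, the lysosomal beta-galactosidase, gave 9.54, 9.40 and 9.64 against 9.18, 8.90 and 8.83. Its lowest SB202190 array was above its highest DMSO array, and it rose by 0.56 (standard error 0.10, adjusted p = 0.0092), but the adjusted p was 0.0502 without SB202190 replicate 3 and 0.0583 without DMSO replicate 3. Rragd, a GTPase that links amino acid supply to mTORC1 at the lysosome, gave 7.02, 6.97 and 7.61 against 6.51, 6.60 and 6.51. The third SB202190 array stood above the other two, and the increase of 0.66 (standard error 0.15, adjusted p = 0.0336) was lost when any one array other than SB202190 replicate 2 was left out, with adjusted p between 0.0569 and 0.135. The other called members were Ctsa and Ctsb, which encode cathepsins A and B, Neu1, a sialidase, Gabarapl1, an autophagosome protein, and Flcn, the folliculin of the mTORC1 pathway, with differences from 0.40 to 0.53. The transcription factors that drive lysosomal genes, named here after their values were seen, did not pass, with differences of -0.08 for Tfeb, 0.05 for Tfe3 and -0.21 for Mitf.

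Metallothioneins and genes of the antioxidant response formed the other group with many increases. Metallothioneins are small cysteine-rich proteins that bind zinc and copper, and NRF2 is the transcription factor that turns on glutathione and thioredoxin enzymes under oxidative or electrophilic stress. Of 22 members tested, 9 were higher against 1.23% of all probe sets, none was lower and 13 did not pass. The median difference was 0.39, and 21 of 22 were positive (46.5% over all probe sets). At limma's unadjusted p under 0.05, 14 were higher and none lower. With the replicate block 14 were higher (3.58% over all probe sets). The count fell to 4 without SB202190 replicate 1 or DMSO replicate 3, to 5 without SB202190 replicate 3 or DMSO replicate 2, and was 11 without DMSO replicate 1.

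Mt1 gave log2 signals of 12.46, 12.28 and 12.64 in SB202190 and 11.32, 11.37 and 11.35 in DMSO. The DMSO arrays were close together and all lay below the SB202190 arrays. It rose 2.16-fold (1.11, standard error 0.13, adjusted p = 0.00025), while its other probe set had the opposite sign and did not pass. Mt2 gave 12.45, 12.16 and 12.32 against 11.46, 11.47 and 11.39, again without overlap, and rose 1.83-fold (0.87, standard error 0.10, adjusted p = 0.000123). Gstm1, a glutathione transferase, gave 10.70, 10.83 and 10.72 against 9.93, 10.04 and 9.70 and rose 1.81-fold (adjusted p = 0.000207), with all 3 of its other probe sets called higher. The groups were again separate. Hmox1, the heme-degrading oxygenase, gave 10.99, 10.98 and 11.18 against 9.96, 10.24 and 10.36. Its increase of 0.86 (standard error 0.19, adjusted p = 0.0287) was lost whichever array was left out, with adjusted p from 0.0545 to 0.115. The rest of the called members were the glutathione synthesis enzymes Gclc and Gclm, the thioredoxin reductase Txnrd1, the sulfiredoxin Srxn1 and the transferase Gsta4, with differences from 0.49 to 0.83. Nfe2l2, the gene of NRF2 itself, named after its value was seen, differed by 0.04 (adjusted p = 0.944).

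Sequences upstream of Mt1, Mt2 and Glb1 are shown as examples from these groups. The genes were picked by hand and each holds a match, so they do not stand for all the genes that rose. For Gpnmb, Sqstm1, Rragd and Hmox1 no match was recorded, whether for lack of a match or of a promoter sequence. The sequences shown are the 250 bases before the transcription start in RefSeq on build GRCm38.p6. They are printed 5′ to 3′ on the gene's strand, and the matches searched for are in capitals. The motifs, sought on both strands, were the metal response element (MRE, TGCACNC or TGCGCNC), the antioxidant response element (ARE, TGACNNNGC), the core of the lysosomal CLEAR element (CACGTGAC), the cyclic AMP response element (CRE, TGACGTCA) and the AP-1 site (TGANTCA), of which the ARE, AP-1, CRE and CLEAR patterns can overlap. Mt1 and Mt2 are neighbours on the same strand, at chr8:94178839-94179088 and chr8:94172368-94172617, and the Glb1 sequence lies at chr9:114400828-114401077, also on the plus strand.
Mt1: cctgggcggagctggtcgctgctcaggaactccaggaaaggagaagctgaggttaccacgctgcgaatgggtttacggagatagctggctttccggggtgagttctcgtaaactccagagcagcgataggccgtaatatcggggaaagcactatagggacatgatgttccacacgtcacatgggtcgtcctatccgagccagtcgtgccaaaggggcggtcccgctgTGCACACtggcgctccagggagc
Mt2: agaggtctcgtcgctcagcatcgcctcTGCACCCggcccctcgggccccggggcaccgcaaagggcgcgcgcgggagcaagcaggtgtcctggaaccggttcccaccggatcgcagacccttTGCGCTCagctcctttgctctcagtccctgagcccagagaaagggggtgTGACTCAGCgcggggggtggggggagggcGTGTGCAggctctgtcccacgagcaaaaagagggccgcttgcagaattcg
Glb1: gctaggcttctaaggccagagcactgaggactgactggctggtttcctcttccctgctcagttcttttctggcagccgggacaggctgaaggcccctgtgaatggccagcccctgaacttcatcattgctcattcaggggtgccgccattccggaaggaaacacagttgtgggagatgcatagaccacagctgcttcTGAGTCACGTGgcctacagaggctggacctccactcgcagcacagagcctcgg
In Mt1 the single MRE match starts 23 bases before the transcription start. Mt2 holds 3 MRE matches, at 223, 128 and 50 bases, and 1 stretch at 79 bases that matches both the ARE and AP-1 patterns. Glb1 holds the CLEAR core at 50 bases, overlapping an AP-1 match at 53.

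Over all 32851 RefSeq promoters of this length, 21.4% held an MRE match, 10.2% an ARE, 1.85% the CLEAR core, 1.55% a CRE and 6.75% an AP-1 match. Of 360 promoters of 277 genes called higher in SB202190, 29.4% held an MRE, 14.4% an ARE, 6.39% the CLEAR core, 0.833% a CRE and 7.22% an AP-1 match. Of 179 promoters of 134 genes called lower, the shares were 26.8%, 6.15%, 1.12%, 0.559% and 12.3% in the same order. The shares over all RefSeq promoters include genes not tested here, and none was computed over all genes tested. Whether called genes differ from other tested genes in these shares was not tested. Among all 37 promoters of lysosome and autophagy genes tested, called or not, 21.6% held the CLEAR core, and among the 24 promoters of NRF2 and metallothionein genes tested 29.2% held an MRE and 16.7% an ARE. For the 9 promoters found for 6 of the called members of that list the shares were 66.7% and 33.3%. Gstm1 has 2 overlapping promoters among these, and their MRE matches, at 74 and 229 bases, are the same site counted in both. For the 9 promoters found for 8 of the called lysosome and autophagy genes, 22.2% held the CLEAR core. A match of letters describes the sequence and does not show that a factor binds there.

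**Figure D3:**
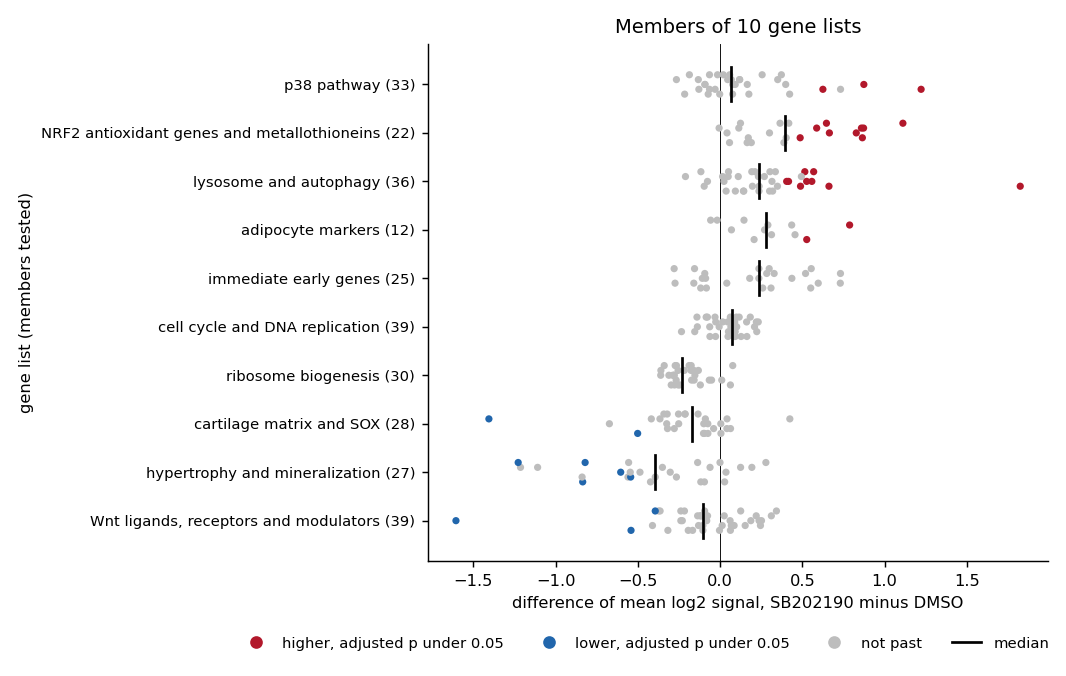
Each point is a gene tested, placed by the difference of its mean log2 signal between SB202190 and DMSO, in rows by gene list with the number of members tested in brackets. Points past the threshold in limma are red where higher and blue where lower, and the rest are grey. The black bar is the median of the list, at 0.39 for the NRF2 and metallothionein list, 0.24 for the lysosome and autophagy list and -0.39 for the hypertrophy and mineralization list.

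Among genes of chondrocyte hypertrophy and mineralization, those that passed the test were all lower in SB202190. Of 27 tested, 5 were lower, against 0.706% of all probe sets, 22 did not pass and none was higher. Differences were negative for 22 of 27 members and positive for 5, beside 46.5% positive over all probe sets. The list median was -0.39, and at limma's unadjusted p under 0.05, 12 were lower and none higher. With the replicate block 14 of the 27 were lower (1.93% over all probe sets) and none higher. Without SB202190 replicate 2 the count of lower members was 3.

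The called members were targets of hedgehog signaling, a cytokine and FOXA factors rather than the collagens or proteases of hypertrophic cells. Ptch1, the hedgehog receptor and a target of the pathway, gave log2 signals of 10.38, 10.66 and 10.60 in SB202190 and 11.52, 11.28 and 11.29 in DMSO. All SB202190 arrays lay below all DMSO arrays, and it fell 1.77-fold (standard error 0.12 on the log2 scale, adjusted p = 0.00177). Gli1, a transcription factor and target of the same pathway, gave 7.24, 7.49 and 7.78 against 8.22, 8.34 and 8.47. Its groups were separate too, and it fell 1.78-fold (adjusted p = 0.0013). Ihh, the ligand, named after its value was seen, differed by -0.49 (standard error 0.24, adjusted p = 0.425, or 0.0406 with the replicate block). Tnfsf11, the gene of the osteoclast-inducing cytokine RANKL, gave 6.71, 5.87 and 6.18 against 7.74, 7.05 and 7.65. In each replicate number SB202190 was lower, and the decrease of 2.34-fold had an adjusted p of 0.00856, or 0.0572 without SB202190 replicate 2. Foxa3 fell 1.46-fold (adjusted p = 0.0182). Foxa2 fell 1.52-fold (adjusted p = 0.0421) but lost the call in 9 of the alternatives, among them those without SB202190 replicate 2 or 3 or any DMSO array, with adjusted p up to 0.216.

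Col10a1, the type X collagen gene that marks hypertrophic cells, did not pass the test but did so with the replicate block. It gave 9.25, 9.60 and 10.58 in SB202190 replicates 1 to 3 and 9.63, 10.13 and 11.36 in DMSO. The groups overlapped, but within each replicate number the SB202190 array was the lower one. The difference was -0.56 with a standard error of 0.46 (adjusted p = 0.714), and the adjusted p was 0.00466 with the replicate block. Mmp13, the collagenase of hypertrophic cartilage, differed by 0.28 (standard error 0.30, adjusted p = 0.801). Ibsp, bone sialoprotein, fell 3.15-fold by the probe set with the larger change, with signals of 7.89, 8.31 and 8.84 against 10.35, 9.93 and 9.72 and an adjusted p of 0.0196. That call was lost without SB202190 replicate 1 (0.12), SB202190 replicate 2 (0.0789) or DMSO replicate 2 (0.0643), and the brighter probe set of the gene differed by -1.21 with an adjusted p of 0.0598.

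Most genes of the cartilage matrix did not pass. Of 28 genes of the matrix and of SOX factors, 2 were lower, against 0.706% of all probe sets, 26 did not pass and none was higher. Differences were negative for 22 and positive for 6, beside 46.5% positive over all probe sets, with a median of -0.17. At limma's unadjusted p under 0.05, 7 were lower and 1 higher. With the replicate block the counts were 7 and 1, against 1.93% and 3.58% of all probe sets. Ucma, a small secreted protein of resting and distal chondrocytes, accounted for the largest change. It gave 9.13, 9.12 and 9.35 in SB202190 and 10.68, 10.48 and 10.66 in DMSO. The groups were more than 1 log2 unit apart, and it fell 2.65-fold (standard error 0.12 on the log2 scale, adjusted p = 1.62e-05), with its other probe set called too. Fmod, the proteoglycan fibromodulin, fell 1.42-fold (adjusted p = 0.0431), and all 5 of its other probe sets were called lower. Its adjusted p was between 0.116 and 0.242 without SB202190 replicate 1 or 2 or DMSO replicate 2 or 3. Counts of lower members ranged from 1 to 4 over the fits that left out 1 array.

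The largest decrease of a named gene was that of Prg4, the joint lubricant lubricin, which gave log2 signals of 7.52, 7.77 and 7.26 in SB202190 and 9.42, 9.30 and 9.29 in DMSO. The DMSO arrays were all far above the SB202190 arrays, and it fell 3.53-fold (standard error 0.21 on the log2 scale, adjusted p = 0.000232). F13a1, the A chain of the transglutaminase factor XIII, gave 6.61, 6.73 and 6.78 against 8.57, 8.30 and 8.44 and fell 3.32-fold (adjusted p = 2.85e-05). Cxcl14, a chemokine, gave 7.49, 7.61 and 7.61 against 9.41, 9.01 and 9.20. The SB202190 arrays were tightly grouped below the DMSO arrays, and it fell 3.11-fold (adjusted p = 3.26e-06). C1qtnf3, a secreted relative of complement C1q also called cartducin, gave 9.09, 9.50 and 9.40 against 10.83, 10.66 and 10.74 and fell 2.66-fold (adjusted p = 2.85e-05). Has2, which makes hyaluronan, gave 8.81, 8.71 and 8.55 against 10.27, 9.87 and 9.93 and fell 2.52-fold (adjusted p = 5.4e-05). These genes were picked among those whose groups do not overlap. Of 30 genes of glycosaminoglycan synthesis and sulfation, Has2 was the only one called (1 lower, against 0.706% of all probe sets, and none higher), with 4 lower and 3 higher at limma's unadjusted p under 0.05.

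Grb14, an adaptor that restrains the insulin receptor, gave 8.62, 8.76 and 8.90 in SB202190 and 10.07, 9.93 and 10.01 in DMSO, a 2.37-fold decrease with the smallest standard error among the 15 largest decreases, 0.09 on the log2 scale (adjusted p = 1.53e-06). Rgcc, a regulator of the cell cycle, fell 2.21-fold (adjusted p = 1.69e-05) and Sod3, an extracellular superoxide dismutase, 2.19-fold (adjusted p = 0.000112), each with its other probe set called. Trp63, the p63 transcription factor of stratified epithelia, gave 6.25, 6.38 and 6.26 against 7.72, 7.29 and 7.09 and fell 2.1-fold (adjusted p = 0.00337). Of its 3 other probe sets 1 was called lower and 1 had the opposite sign. Trp63 was the only member of 13 epithelium markers called. The summed signal of those markers was 11.95 to 12.01 in SB202190 and 12.03 to 12.15 in DMSO, and their part in the Trp63 value was not tested. Atp8b1, a phospholipid flippase, fell 2.35-fold with all SB202190 signals below the level of 5.64 used as the filter. Ccn1, a matrix-associated signaling protein, gave 8.45, 8.47 and 9.83 against 10.19, 10.08 and 9.89. The third SB202190 array lay next to the DMSO arrays, 2 of the gene's 3 other probe sets had the opposite sign, and the adjusted p of 0.0421 rose above the threshold without any array but SB202190 replicate 3, to as much as 0.23.

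Those Wnt regulators that passed the test were all lower. Of 39 Wnt ligands, receptors and modulators, 3 were lower, 36 did not pass and none was higher, against 0.706% and 1.23% of all probe sets. At limma's unadjusted p under 0.05, 7 were lower and 5 higher, and with the replicate block 6 were lower (1.93% over all probe sets). Wif1, a secreted inhibitor that binds Wnt proteins, gave log2 signals of 6.59, 6.48 and 6.59 in SB202190 and 8.43, 7.97 and 8.08 in DMSO. Every SB202190 array lay more than 1 log2 unit below every DMSO array, and it fell 3.04-fold (standard error 0.15 on the log2 scale, adjusted p = 2.85e-05). The ligand gene Wnt10a gave 7.58, 7.58 and 7.62 against 8.26, 8.01 and 8.14 and fell 1.46-fold (adjusted p = 0.00759). Notum, an enzyme that inactivates Wnt proteins, fell by 0.39 on the log2 scale (adjusted p = 0.034), a call that was lost without any one array other than DMSO replicate 1, with adjusted p from 0.0969 to 0.161.

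In the TGF-beta and BMP group of 41 genes, 4 were higher (1.23% over all probe sets), 3 lower (0.706%) and 34 not past. The higher ones included Id3, an inhibitor of basic helix-loop-helix factors and a target of BMP signaling, which gave 11.82, 11.87 and 12.07 in SB202190 and 11.39, 11.19 and 11.27 in DMSO, a 1.56-fold increase (adjusted p = 0.00476). Its relative Id2 rose 1.63-fold (adjusted p = 0.0192), but not without SB202190 replicate 1 or 2 or DMSO replicate 2 or 3 (0.0502 to 0.12). Fst, the activin antagonist follistatin, gave 10.22, 10.11 and 10.22 against 11.06, 11.03 and 10.99. The arrays of each group were close together and the groups separate, and it fell 1.8-fold (adjusted p = 0.00107). Inhbb, an activin subunit, fell by 0.79 on the log2 scale (adjusted p = 0.0264), a call lost in the fits without SB202190 replicate 1 or 2 or DMSO replicate 2 or 3 (0.0657 to 0.121). The remaining calls were Ltbp3 and Smad6, higher, and Inhba, lower.

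Transcripts that MK2 is known to stabilize, such as those of cytokines and chemokines, were mostly not past the test. Of 32 inflammatory genes of this kind tested, 1 was higher (1.23% over all probe sets), 2 were lower (0.706%) and 29 did not pass, with a median of 0.00. At limma's unadjusted p under 0.05, 2 were higher and 4 lower. The counts with the replicate block were the same, against 3.58% and 1.93% of all probe sets. None was lower without SB202190 replicate 1 or DMSO replicate 2 or 3, and 1 was lower without SB202190 replicate 2 or 3. The one higher was Cxcl12, a chemokine, with 10.86, 10.86 and 10.78 in SB202190 and 10.33, 9.97 and 9.77 in DMSO. The groups did not overlap, and it rose 1.75-fold (adjusted p = 0.00444). Il1rn, whose product blocks the receptor of interleukin 1, fell 1.47-fold (adjusted p = 0.016) and the cytokine gene Il11 1.43-fold (adjusted p = 0.0386). Il1rn was not past without SB202190 replicate 1 or 3 or DMSO replicate 2 or 3 (0.0567 to 0.0969), nor Il11 without SB202190 replicate 1 or 2 or DMSO replicate 2 or 3 (0.0704 to 0.21). Il6, named after its value was seen, differed by -0.93 with a standard error of 0.39 (adjusted p = 0.326) and Ptgs2 by -0.59 with one of 0.46.

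Immediate early genes are those that cells switch on within minutes of a stimulus. None of 25 passed the test in either direction with limma, 5 were higher and 2 lower at an unadjusted p under 0.05, and the median difference was 0.24. The 2 largest differences were those of Fos and Egr1. Fos gave 11.12, 11.47 and 9.47 in SB202190 replicates 1 to 3 and 10.10, 10.21 and 9.54 in DMSO. Egr1 gave 13.13, 13.18 and 11.88 against 12.15, 12.15 and 11.69. In both genes the first and second SB202190 arrays lay above all DMSO arrays, and the third did not. Replicate 3 was also the lowest of the DMSO arrays for both. The differences were 0.73 with standard errors of 0.72 and 0.49 (adjusted p = 0.775 and 0.62). Dusp1, a phosphatase of p38 and a member of the p38 list, gave 11.66, 11.53 and 10.69 against 10.66, 10.42 and 10.62. Again the third SB202190 array was the lowest, level with the DMSO arrays. With the replicate block its adjusted p was 0.0116 and that of Egr1 0.0265. With the block 4 of the 25 immediate early genes were higher (3.58% over all probe sets) and none lower.

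**Figure D4:**
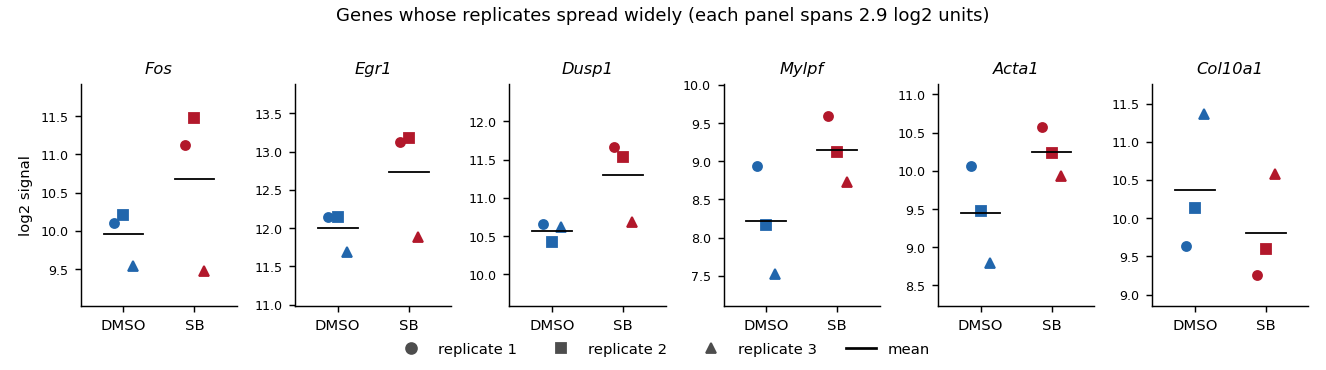
Log2 signal of single arrays for DMSO (blue) and SB202190 (SB, red), with a marker for each replicate and a line at the mean of the 3 arrays, in panels that span the same range of log2 units. Fos, Egr1 and Dusp1 are low on SB202190 replicate 3, at 9.47, 11.88 and 10.69, and the muscle genes Mylpf and Acta1 and the collagen gene Col10a1 keep the same order of replicates in both groups.

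Some of the genes that rose are also known from other cell types. Car3, a carbonic anhydrase abundant in skeletal muscle and fat cells, gave 8.72, 8.39 and 8.45 in SB202190 and 7.31, 7.32 and 6.73 in DMSO and rose 2.63-fold (adjusted p = 0.00683), while the 1 tested of its 3 other probe sets was not called. The 29 muscle markers tested were each read by their brightest probe set. Of these markers, 21 had positive and 8 negative differences, beside an unmatched 46.5% positive over all probe sets. They ranged from -0.39 to 0.94 with a median of 0.13 on the log2 scale. None passed with limma, and 2 were higher and 2 lower at an unadjusted p under 0.05. The 2 largest were those of Mylpf, a myosin light chain (0.94, adjusted p = 0.288, or 0.00291 with the replicate block), and Acta1, skeletal muscle actin (0.80, adjusted p = 0.287, or 0.00476). Of 12 adipocyte markers, 2 were higher (1.23% over all probe sets) and none lower, with 6 higher at limma's unadjusted p under 0.05, 4 with the replicate block (3.58%), and summed signals of 14.14 to 14.19 in SB202190 and 13.86 to 14.01 in DMSO. The 2 were Lpl, lipoprotein lipase, which gave 11.14, 11.19 and 11.01 against 10.51, 10.33 and 10.14 and rose 1.73-fold (adjusted p = 0.00337), and Pparg, the master regulator of fat cells, which gave 8.43, 8.54 and 8.56 against 8.00, 8.04 and 7.91 and rose 1.44-fold (adjusted p = 0.00774). Neither gene's groups overlapped, and both calls held whichever array was left out. The part of other cell types in these values was not tested.

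Other large increases were spread over several functions. Esm1, a secreted proteoglycan also called endocan, rose 2.84-fold from a DMSO level below the filter, with 7.17, 5.80 and 7.02 against 5.26, 4.94 and 5.27 (adjusted p = 0.00329), and its second SB202190 array was well under the other two. Summed endothelium markers, of which Esm1 is not one, were 11.36 to 11.52 in SB202190 and 11.35 to 11.50 in DMSO. Septin4, a cytoskeletal GTPase, gave 7.61, 7.71 and 7.40 against 6.79, 6.46 and 6.16 and rose 2.15-fold (adjusted p = 0.000651), with its other probe set called too. Ephb6, an Eph receptor that lacks kinase activity, and Usp11, a deubiquitinase, rose 1.94-fold and 1.89-fold (adjusted p = 0.000112 and 0.000147). Mgst1, a membrane-bound glutathione transferase, rose 2.09-fold and Pag1, an adaptor that recruits the kinase CSK, 2.13-fold, each with 1 other probe set of the opposite sign. Cpt1a, the gatekeeper of fatty acid entry into mitochondria, rose 1.83-fold (adjusted p = 0.0155), with both other probe sets called, but lost the call without SB202190 replicate 1 or 2 or DMSO replicate 2 or 3 (0.0558 to 0.101). Adamts9, a matrix protease, gave 9.83, 9.93 and 9.89 against 9.03, 9.03 and 9.05 and rose 1.8-fold (adjusted p = 9.3e-05). Of the 28 proteases and inhibitors in its list, 4 were higher (1.23% over all probe sets), 2 lower (0.706%) and 22 not past. Without SB202190 replicate 2 or 3 or DMSO replicate 2 or 3 only 1 was higher, and without SB202190 replicate 1 the count was 2. None was lower without SB202190 replicate 1 or 2 or DMSO replicate 2 or 3, and 1 was lower without DMSO replicate 1.

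Since UO126 and LY294002 were profiled on the same kind of array, the SB202190 arrays were compared with theirs directly. The DMSO means do not enter these differences, but all 15 arrays share 1 estimate of the spread. These comparisons share the SB202190 arrays with the one against DMSO. Against UO126, 874 of 34492 probe sets were higher in SB202190 (2.53%) and 926 lower (2.68%). Against LY294002, 528 of 34341 were higher (1.54%) and 1051 lower (3.06%). The doses of SB202190 and UO126 are not given in the sources used here, so a difference in size between the compounds holds for these cultures only.

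Gpnmb was 2.32 higher on the log2 scale in SB202190 than in UO126 (standard error 0.09, adjusted p = 6.07e-10) and 2.74 higher than in LY294002 (adjusted p = 4.26e-11). Its mean signal was 8.54 in UO126 and 8.11 in LY294002, both under the DMSO arrays. Map2k6 was 0.97 higher than in UO126 (standard error 0.13, adjusted p = 0.000194) and 1.26 higher than in LY294002 (adjusted p = 3.84e-05). Septin4 was higher by 1.01 and 1.13 (adjusted p = 0.000353 and 0.00026). The metallothioneins were higher than in UO126 by 2.04 for Mt1 and 1.79 for Mt2 (adjusted p = 6.74e-08 and 1.36e-08), and higher than in LY294002 by 1.35 and 0.69 (adjusted p = 2.16e-05 and 0.00048). Gadd45a, in contrast, was 1.07 higher than in UO126 (adjusted p = 2.19e-05) but differed from LY294002 by 0.10 (standard error 0.12, adjusted p = 0.754). Usp11 likewise was 0.58 higher than in UO126 (adjusted p = 0.00228) and differed from LY294002 by -0.31 (standard error 0.10, adjusted p = 0.118). The TSA means, for which no test is given, were above those of SB202190 for Mt1 (13.69 against 12.46), Mt2 (13.86 against 12.31) and Septin4 (8.49 against 7.57). They were below for Gpnmb (7.86 against 10.85), Map2k6 (8.66 against 9.35) and Usp11 (9.39 against 9.76). For Gadd45a the means were 9.134 in TSA and 9.115 in SB202190.

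Among the decreases, Cxcl14 differed from UO126 by -0.97 on the log2 scale (adjusted p = 0.00011) and from LY294002, where its mean signal was 10.18, by -2.61 (adjusted p = 5.11e-09). C1qtnf3 differed by -2.58 and -1.45 (adjusted p = 1.3e-08 and 1.29e-05), its mean being 11.91 in UO126 and 10.78 in LY294002. Ucma differed by -1.89 and -1.55 (adjusted p = 8e-08 and 3.6e-06), Wif1 by -0.99 and -1.75 (adjusted p = 0.000583 and 7.66e-06) and F13a1 by -1.12 and -1.13 (adjusted p = 0.000432 and 0.000697). Each of these genes was thus lower with SB202190 than with either of the other kinase inhibitors. With TSA, for which no test is given, the mean was lower still for F13a1 (5.49), C1qtnf3 (6.25) and Ucma (6.77). It was above that of SB202190 for Cxcl14 (8.24 against 7.57) and Wif1 (8.70 against 6.55). The F13a1 means in UO126 (7.83) and LY294002 (7.84) were also under that of DMSO (8.44). Prg4 differed from UO126 by -0.25 with a standard error of 0.21 (adjusted p = 0.73), and from LY294002 by -0.79 (adjusted p = 0.0439). Tnfsf11 differed from UO126 by 0.26 with a standard error of 0.23 (adjusted p = 0.742) and from LY294002 by -1.49 (adjusted p = 0.000977). A p above the threshold does not show that 2 inhibitors left a gene at the same level.

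**Figure D5:**
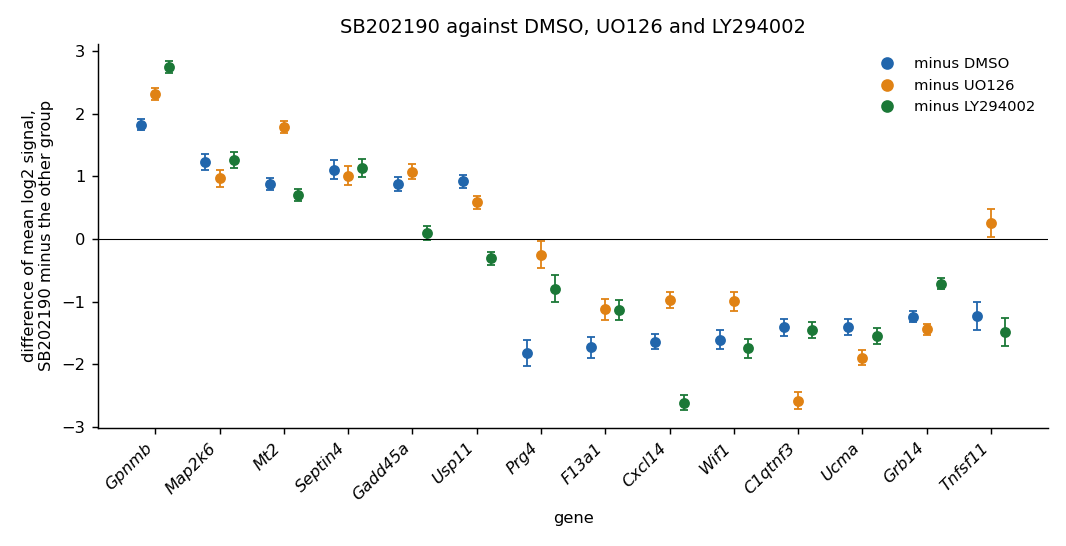
Difference of the mean log2 signal between SB202190 and DMSO (blue), UO126 (orange) or LY294002 (green) for genes on the x axis, with bars of 1 standard error from limma. Gpnmb, Map2k6 and Septin4 lie above 0 and F13a1, Cxcl14, Wif1, C1qtnf3, Ucma and Grb14 below 0 in every comparison, while Gadd45a lies at 0.10 against LY294002 and Tnfsf11 at 0.26 against UO126.

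The gene lists gave further differences between the inhibitors. Of 28 cartilage matrix and SOX genes, 20 were lower in SB202190 than in UO126 (2.68% over all probe sets) and 19 lower than in LY294002 (3.06%), with medians of -0.70 and -0.63, beside 2 lower than in DMSO. Of the same list 1 was higher than in UO126 and none higher than in LY294002. The aggrecan gene Acan, one of the chondrocyte markers, differed by -1.05 from UO126 (adjusted p = 0.000194), by -0.78 from LY294002 (adjusted p = 0.00348) and by -0.32 from DMSO (adjusted p = 0.355). Of 27 hypertrophy and mineralization genes, 14 were lower than in UO126 and 7 lower than in LY294002, with medians of -0.80 and -0.42, while 1 was higher than in UO126. The hedgehog target Ptch1 differed by -1.12 and -0.94 (adjusted p = 1.99e-05 and 0.000256). Of 36 lysosome and autophagy genes, 12 were higher than in UO126 (2.53% over all probe sets) and 5 higher than in LY294002 (1.54%), with 1 lower in each. In the NRF2 and metallothionein list 5 of 22 were higher than in UO126 and 8 higher than in LY294002, and none was lower. In the p38 pathway list of 33, 3 were higher and 2 lower than in UO126, and 1 was higher than in LY294002. Of 18 genes of ERK feedback and ETS factors, the readout of the pathway that UO126 blocks, 7 were higher in SB202190 than in UO126 and none was lower, while 1 was higher than in DMSO.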

How the data were processed

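Per the labels and the study's methods, total RNA was extracted with a Qiagen RNeasy kit and read on Affymetrix whole-genome mouse arrays. The values are log2 signals that the authors normalized and deposited, 1 column per array and no replicates pooled. The methods name GC-RMA for this deposit and RMAExpress for the gene set analysis, and which of them made the table is not settled. RMA-type values understate large folds of dim probe sets. Medians of the 6 arrays lay between 6.94 and 7.00.

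Groups came from the sample labels. The table held 45101 probe sets, from which 64 control sets were dropped. Genes were named from GEO's platform annotation updated through RefSeq (GRCm38.p6): 34945 probe sets had 1 symbol, 932 several and 9160 none, and only the first were named. With limma 3.58.1 in R 4.3.3, 1 mean per treatment was fitted to all 15 arrays (10 residual degrees of freedom) and moderated with eBayes, and two-sided p-values were adjusted by Benjamini-Hochberg over the probe sets tested. With 3 arrays a group the smallest exact permutation p is 0.1, so none is given. The step was tested on simulated data first. The members and gene lists were chosen with earlier results of these data known. Picked by rule were the 15 largest increases and 15 largest decreases among called genes whose arrays do not overlap. Also picked were all p38 pathway genes and up to 4 called members of each other list (the 2 largest changes where none was called). The text does not describe all of the genes picked, and Dzip1 and several p38 pathway genes are among those left out. Other list members that the text names were chosen after their values were seen, among them Col2a1, Acan, Col10a1 and the regulators Tfeb and Nfe2l2. For a list member the brightest probe set (by its mean of the 15 arrays) was used. The number of arrays limits the precision.

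Replicate numbers were checked for pairing. Deviations from the group means correlated by 0.237, 0.302 and 0.325 for same-numbered SB202190 and DMSO arrays, and below 0 for all other pairs. Such deviations sum to 0 within a group, so the negative values are in part forced by the positive ones. From the positive values the numbers were taken to pair the arrays, and the fit with the replicate block was run as an alternative.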

Additional observations from a re-analysis of the deposited data

How the results depend on the processing

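The counts of calls depended on how replicate spread was modelled. With the replicate block, 1237 probe sets were higher and 668 lower in SB202190 than in DMSO, 1742 and 1421 against UO126, and 1079 and 2233 against LY294002; the block added calls and lost none of those against DMSO. Quantile normalization gave 777 higher and 503 lower than DMSO and 1010 higher than LY294002, and the 6 arrays of SB202190 and DMSO alone gave 204 higher. Leaving out 1 array gave 155 to 650 higher and 102 to 196 lower than DMSO, 243 to 642 at least 1.4-fold higher, 477 to 789 higher and 572 to 811 lower than UO126, and 297 to 472 higher and 501 to 938 lower than LY294002. Fewer arrays leave fewer degrees of freedom, while the rise to 650 without DMSO replicate 1 had a cause that was not tested.

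Of 73 genes picked by rule that passed, described in the text or not, 32 lost the call under at least 1 alternative and none changed sign. Of 45 that did not pass, 9 passed under an alternative and 11 changed sign. The log2 differences of those 11 under the alternatives were as follows. Median centring gave 0.000722 for Mapkapk3, 0.0154 for Mapk13 and 0.0287 for Gadd45g, and quantile normalization gave -0.0249 for Atf2. Leaving out 1 array gave -0.0238 to 0.301 for Tab2, -0.187 to 0.0526 for Map3k7, -0.312 to 0.134 for Zfp36, -0.253 to 0.0734 for Mapk12, -0.0144 to 0.219 for Mapk14, -0.0248 to 0.178 for Creb1, -0.0906 to 0.205 for Atf2, -0.0697 to 0.0257 for Mapk13, -0.0535 to 0.0716 for Gadd45g and -0.162 to 0.0148 for Alas2. The number of arrays, 3 a group, limits what can be called.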

Other observations

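Some of the groups not described above are given here. Other lists, among them FOXO targets and p53 targets, have no counts in the text. Of 39 genes of the cell cycle and DNA replication, none passed in either direction with limma, and none had an unadjusted p under 0.05. The same was true of 31 genes of the amino acid response and tRNA synthetases. Of 30 ribosome biogenesis genes none passed. Differences were negative for 27 and positive for 3, beside 46.5% positive over all probe sets, with a median of -0.23 on the log2 scale. In limma 14 were lower at an unadjusted p under 0.05, 3 with the replicate block (1.93% over all probe sets) and 11 with quantile normalization.

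Among 20 circadian clock genes 2 were higher, against 1.23% of all probe sets. Dbp, an output gene of the clock, gave log2 signals of 8.29, 8.39 and 8.18 in SB202190 and 7.76, 7.57 and 7.54 in DMSO, a 1.58-fold increase without overlap (adjusted p = 0.00479). The call for Per3, a clock repressor, was lost without SB202190 replicate 2 (adjusted p = 0.081) or replicate 3 (0.0622) or DMSO replicate 3 (0.0537). Of 21 smooth muscle and cytoskeletal targets of SRF 2 were lower, against 0.706% of all probe sets, and 1 was lower whichever array was left out. Cnn1, calponin, gave 7.16, 6.96 and 7.11 against 7.63, 7.83 and 7.89 (adjusted p = 0.000464). The other, Myl9, a myosin light chain, had an adjusted p of 0.0495 and lost its call in 11 of 15 alternatives. Of 10 osteoclast markers 1 was higher and 1 lower, beside those same shares. The one lower was Nfatc1, a transcription factor downstream of RANKL in osteoclasts, with 9.01, 8.95 and 8.88 against 9.37, 9.41 and 9.43 (adjusted p = 0.00244). The one higher, Acp5, lost its call whichever array was left out, with adjusted p up to 0.183. Slc16a3, a lactate exporter, gave 8.07, 8.04 and 8.12 against 8.50, 8.62 and 8.51 and fell by 0.47 on the log2 scale (adjusted p = 0.00718).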
